A study of Oryctolagus cuniculus with 3 samples.

Results

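The probes described here kept a signal close to control in the model aorta and were at least 4-fold lower in the recovery aorta. They were chosen on their measured values. Signals under a floor of 4.37 on the log2 scale were set to that floor. A probe was then taken if its model signal lay within 0.5 of control and its recovery signal lay 2 or more below control, both on the log2 scale. This rule took 82 of 43603 gene probes, or 0.283% of the 28953 probes that exceeded the floor in at least 1 array. The rule used all 3 arrays, so the ratios of these probes are given as a description with no test. The tissue was the abdominal aorta of male New Zealand white rabbits, 3 months old at purchase. The control rabbit (day 0) was uninjured and ate normal chow. The model rabbit (day 30) received chow with added cholesterol and peanut oil, and its aorta was injured with a balloon early in that diet. The recovery rabbit (day 60) had the same injury and diet and then 4 further weeks of chow without added cholesterol, which the methods describe as restricted in amount and the labels as normal. The groups held 4 rabbits each, of which 1 aorta per group was hybridized, picked with the help of tissue sections and intravascular ultrasound. Every difference therefore compares single aortas, and injury, diet, age and the individual animal cannot be told apart. In whole tissue, fewer cells of a type and less RNA per cell cannot be told apart either.

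An atherosclerotic aorta is a mixture of contractile smooth muscle, endothelium, fibroblasts and invading leukocytes such as macrophages. When the cholesterol load is removed, a plaque can lose lipid and inflammatory cells while the injured wall goes on healing. The genes that could be named at or near this pattern act in mitochondria (BCS1L, GTPBP10) and in innate sensing of RNA (TLR3). Others act in chromatin silencing (PCGF1) and in protein glycosylation (ALG8). TLR3 met the rule only by the median of its probes, and PCGF1 and ALG8 only by 1 probe each.

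A fall confined to recovery was an uncommon form of low recovery signal. Of the measured probes, 1810 (6.25%) lay 2 or more below control in recovery on the log2 scale. In the model array 1187 of these already lay 2 or more below control, 411 lay between 1 and 2 below, and 120 lay between 0.5 and 1 below. The 82 probes were 4.53% of the 1810, and a further 10 lay 0.5 or more above control in model. The mirrored rule, with recovery 2 or more above control, took 163 probes (0.563%), which were 10.6% of the 1532 probes (5.29%) that high in recovery. The floor bears unequally on these counts. A probe needed a control signal of at least 6.37 to be able to fall 4-fold, whereas 47 of the 163 probes higher only in recovery lay below the floor in control. Among the 8686 probes within 0.5 of control in model and bright enough in control to be taken, the 82 were 0.944%.

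The 82 probes covered most of the signal range. Their log2 signal ran in control from 6.38 to 16.24 with a median of 8.66, in model from 5.94 to 15.92 with a median of 8.43, and in recovery from 0.31 to 13.64 with a median of 6.14. The median control signal of all measured probes was 7.32. Control levels were 10 or more for 23 of the 82 and under 7 for 18. The model signal lay below control for 64 probes and above it for 18, and 39 lay within 0.25 of control. The median difference was -0.21, against 0.02 over all measured probes. The shares of all measured probes below control in model, or within 0.25 of it, are not given here. Among all measured probes 50.2% lay within 0.5 of control in model, the width of the window. The median of recovery minus control was -2.23, against 0.04 over all measured probes. The fall was under 5-fold for 47 probes, and 13 probes lay 3 or more below control. Against the model array, recovery was at least 2-fold lower at all 82 probes, with differences of -4.55 to -1.56, where 8.16% of measured probes were, a fall against model that the rule itself fixes. Of the 82, 51 lay 2 or more below model on the log2 scale, where 1.52% of measured probes did. In the recovery array 66 probes remained above the floor, with measured falls of 4.09-fold to 16.7-fold and a median of 4.71-fold. The other 16 lay below the floor in recovery, so their folds are lower bounds, from at least 4.02-fold to at least 11.5-fold. Of the 66, 11 lay within 0.5 above the floor.

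The value table names probes only by number, and the numbers showed a structure that the rule did not use. Numbers ran in sets of 5, of which the array carried between 1 and 5 probes. Among adjacent numbers of 1 set, Pearson's r of recovery minus control was 0.967 over 14313 pairs of measured probes, with a median absolute difference of 0.11 on the log2 scale. Among adjacent numbers that belonged to neighbouring sets it was 0.047 over 1575 pairs, with a median difference of 1.12. The pairs share the same arrays, and the place where sets begin was found from the model ratios of all probes. Probes of 1 set are therefore read here as repeated measurements of 1 target, which carry the error between oligos but none between rabbits.

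The 82 probes fell into 44 probe sets, 14 of which had a single probe. The other 30 sets held 103 probes, of which 97 lay 1 or more below control in recovery on the log2 scale, where 16.0% of all measured probes did. The 68 probes of these sets that the rule took are among the 97 by construction. Of the 35 it did not take, 29 lay 1 or more below control. Of these 35, 17 lay 2 or more below control and missed the rule only by their model signal, and 17 lay within 0.5 of control in model and missed it by a smaller fall. By contrast, of 9 measured probes that adjoined a member in number but belonged to the next set, 0 lay 1 or more below control. In 25 of the 30 sets every probe lay 1 or more below control, and in 17 sets every probe lay 2 or more below. The SD of the fall over the probes of a set had a median of 0.17, with a range of 0.0037 to 1.45. Over all measured sets 6.41% had a median 2 or more below control in recovery. By the median of their probes, 33 sets met the rule, 32 of them with a member probe, and 77 sets met the mirrored rule.

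The deepest measured fall was that of probe A_04_P073427, whose log2 signal was 8.51 in control, 8.99 in model and 4.44 in recovery. This was 16.7-fold lower in recovery than in control. A second probe of its set was also a member, and the third lay at 8.05, 8.58 and 4.38 in the same order and missed the model window at 0.52. The model signal of this set was thus raised at all 3 probes. The largest bound was that of probe A_04_P026946, at 7.90 in control, 7.85 in model and 4.10 in recovery, or at least 11.5-fold lower. All 5 probes of its set were members, with control signals of 6.39 to 7.90, and their model signals differed from control by -0.17 to 0.0046. A set of 5 probes with control signals of 6.40 to 6.83 had recovery signals of 0.31 to 2.29, far below the floor. Because the floor stands in for these signals, the bounds of its 4 member probes are only 4.07-fold to 4.60-fold.

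Several sets were measured well above the floor by every probe. One set of 5 had control signals of 10.41 to 10.66, model signals of 10.22 to 10.59 and recovery signals of 8.23 to 8.46. Recovery minus control had a median of -2.23 with an SD of 0.04 over its 5 probes. Another set of 5 had control signals of 12.28 to 12.42, model signals of 12.18 to 12.33 and recovery signals of 10.28 to 10.36, and 4 of its 5 probes were members. A set of 3 ran at 9.82 to 10.99 in control, 9.77 to 10.79 in model and 6.83 to 7.92 in recovery, with recovery minus control of -3.07 to -2.99. These 3 sets were separated in recovery from both other arrays by more than the range over their probes. The rule already places recovery at least 2 below control at each member probe, so this separation was largely fixed in advance. Among the 14 single probes, the brightest had 16.24 in control, 15.92 in model and 13.64 in recovery. Another had 11.19 in control, 10.85 in model and 7.71 in recovery, or 11.1-fold lower, and a further one had 9.49, 9.54 and 7.18 in the same order. The sets and probes of this paragraph could not be named.

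In 5 of the 30 sets some probe lay less than 1 below control in recovery. One set of 5 held 3 members with recovery minus control of -2.49 to -2.14 and another probe at -1.71, while the brightest had 11.67 in control, 11.79 in model and 11.66 in recovery. In a set of 3 the members stood at -2.27 and -2.37 in recovery, and the remaining, brightest probe at -0.60. The other 3 such sets held 1 member each. In one of them the member had 7.58 in control, 7.77 in model and 5.38 in recovery, and its partner 10.05, 10.49 and 9.62 in the same order. In another the probes besides the member had 5.32 and 5.05 in control and 3.43 and 2.61 in recovery. These recovery signals lay below the floor, so their differences of -0.95 and -0.67 are bounds and do not conflict with the member. In the last the partner lay below the floor in control, at 2.98, and could not register a fall. The probes of the sets described before these gave falls of unlike size.

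Gene names were assigned through the study's list of changed genes, first where both ratios to control of a listed gene equalled those of exactly 1 probe within 0.006 on the log2 scale. This named 2 of the 82 probes, BCS1L and PTGFR. The ratios of many listed genes equalled the median over a probe set instead, so sets were matched in the same way. Of 1491 listed genes more than 4-fold changed in either array, 1228 matched the median of a set, against 24 to 36 after all ratios were shifted by 0.1. Matched through sets, BCS1L kept its assignment, PTGFR lost it, and GTPBP10, PCGF1 and ALG8 were added as sets with a member probe and TLR3 as a set whose median met the rule. Chance would give 0.025 to 0.036 matches for each of the 5 genes. The study's list was itself drawn from these arrays, and the 5 genes all lay toward the lower edge of the model window, between -0.49 and -0.39. An unmatched probe is unnamed here, which does not mean that it has no gene.

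BCS1L encodes a mitochondrial chaperone that inserts the iron-sulphur subunit into respiratory complex III. The listed entry is LOC100351828, whose gene number RefSeq pairs with BCS1L. Its single probe had a log2 signal at 11.24 in control, 10.75 in model and 9.15 in recovery. The signal was 4.27-fold lower in recovery than in control, and its model difference of -0.49 was the closest to the edge of the window among the 82 probes. GTPBP10 encodes a GTPase that takes part in assembly of the large subunit of the mitochondrial ribosome. Its 2 probes had 7.08 and 7.25 in control, 6.74 and 6.67 in model, and 5.001 and 4.74 in recovery. The falls in recovery were 4.21-fold and 5.68-fold, and only the first probe lay within the model window. Both recovery levels of GTPBP10 were within 1 of the floor on the log2 scale.

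TLR3 encodes an endosomal receptor that recognises RNA duplexes and triggers interferon production. Its 2 probes had 8.15 and 8.22 in control, 7.70 and 7.70 in model, and 6.16 and 6.11 in recovery. Neither probe met the rule on its own, since the first stood at -1.99 in recovery and the second lay at -0.52 in model, but their median did, at -0.49 in model and -2.05 in recovery. PCGF1 encodes a subunit of a Polycomb complex that ubiquitinates histone H2A. Its 3 probes had 8.43 to 8.80 in control, 7.99 to 8.41 in model and 6.47 to 6.70 in recovery. The falls of 3.90-fold to 4.28-fold straddled the cutoff, and 1 probe was a member. ALG8 encodes a glucosyltransferase of the endoplasmic reticulum that extends the sugar chain later attached to proteins. Its 2 probes had 9.51 and 8.89 in control, 9.13 and 8.50 in model, and 7.76 and 6.84 in recovery. The falls were 3.37-fold and 4.15-fold. For each of these 4 genes with more than 1 probe, the recovery signals of all probes lay below all their control and model signals. The genes were named because a member probe or the set median met the rule, so this order was largely fixed in advance.

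PTGFR, the receptor of prostaglandin F2 alpha, is named by the single-probe rule alone. The matched probe had 6.50 in control, 6.10 in model and 4.44 in recovery. The other probe of that set had 2.98, 5.12 and 3.25 in the same order, above the floor only in model. Chance would give 0.094 matches at this position, and no set median matched the listed gene. The assignment of PTGFR is therefore uncertain.

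The cutoffs divided values that lay close together. Just inside the recovery cutoff were differences of -2.01, -2.01 and -2.02, and just outside it -1.99, -1.99 and -1.99, of which one belonged to a TLR3 probe. Just inside the model window were differences of -0.49, -0.49 and 0.49. Just outside it was SDR39U1, a short-chain dehydrogenase, with 10.24 in control, 9.74 in model and 7.90 in recovery, at a model difference of -0.50. The next 2 probes outside lay at -0.50 and -0.51.

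Lists of pathways and cell type markers were set beside the named genes, counted over genes with an assigned probe set that exceeded the floor. Over all 14479 measured sets, 2350 (16.2%) lay at least 2-fold below control in recovery and 971 (6.71%) at least 2-fold below model, and the median of each difference was 0. The study's list holds changed genes only, so the background of the lists is the 1598 assigned genes that were measured. Of these, in recovery 660 (41.3%) lay at least 2-fold below control, 405 (25.3%) lay 2-fold or more above it, and 318 (19.9%) lay at least 2-fold below model. Their median of recovery minus control was -0.40. With 2 to 5 measured genes in each of the pathway lists below, their counts are not set apart from these shares. In the list of Toll-like receptors and innate RNA sensing 4 of 25 genes were measured, 2 lower and 2 higher in recovery than in control. Besides TLR3, IRF5, a transcription factor downstream of Toll-like receptors, was low in recovery, with 7.21 in control, 8.51 in model and 4.94 in recovery. TLR6, a partner of TLR2, stood at least 2.13 above control in recovery, its control signal being below the floor, and the interferon-induced chemokine CXCL10 stood 3.14 above control. In the list of the mitochondrial ribosome and its assembly 2 of 20 genes were measured, and both were lower in recovery than in control. ERAL1, a chaperone of mitochondrial ribosomal RNA, differed from GTPBP10 in that it already lay at -1.68 in model, and it stood at -2.19 in recovery. In the p38 MAP kinase list 2 of 19 were measured, and both were lower in recovery. MAP2K6, a kinase that activates p38, lay at -0.49 in model, and its control signal of 5.44 was too near the floor for a 4-fold fall. MAPK14, p38 alpha, lay at -0.92 in model and at -1.93 in recovery. In the prostanoid list 4 of 19 were measured, 3 of them lower in recovery. TBXA2R, the thromboxane receptor, had model and recovery differences of -0.80 and -2.48, whereas the prostaglandin D synthase PTGDS stood 2.97 above control. In the DNA repair list 5 of 25 were measured, of which BRCA2 and CHEK1 were at least 2-fold lower in recovery, and 4 of the 5 lay below the floor there.

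Markers of several cell types were low in the same array, where 41.3% of the assigned genes were at least 2-fold below control. In model 657 of the 1598 (41.1%) were at least 2-fold below control, as were 13.9% of all measured sets, and 501 (31.4%) were at least 2-fold above it. Of 14 markers of proliferating cells 9 were measured, 7 of them at least 2-fold lower in recovery than in control and 6 in model, with a median of -1.69 in recovery and -1.24 in model. CDK1, the kinase that drives entry into mitosis, came closest to the rule, its medians over 3 probes being 7.14 in control, 6.52 in model and 4.23 in recovery. The cyclin CCNB1 had 8.65 in control, 7.43 in model and 5.64 in recovery, and 7 of the 9 markers were below the floor in recovery. Of 14 macrophage markers 4 were measured, and 3 were lower in both arrays, the summed linear signal being 3158 in control, 1525 in model and 794 in recovery. Of these, C1QA and C1QC stood at -1.99 and -2.01 in recovery and at -1.09 and -1.07 in model, and MARCO lay below the floor in both arrays. The remaining marker, CX3CR1, went the other way in model, exceeding the floor there alone, at 5.80. Of 10 fibroblast markers 3 were measured and all were lower in recovery, the summed signal being 19804 in control, 9177 in model and 2258 in recovery. Among them the collagen gene COL1A1, the brightest of the 3 in each array, had 13.66 in control, 13.08 in model and 10.84 in recovery. Its model difference of -0.58 was just beyond the window. The others were already low in model, DPT at -4.03 there and -4.83 in recovery, and MFAP5 at -3.12 and -3.02. Of 12 lymphocyte markers 6 were measured, all below the floor in model and in recovery. Of 12 markers of endothelium 3 were measured, the summed signal being 1815 in control, 229 in model and 645 in recovery. These markers did not move together from model to recovery. CLDN5 changed by 2.77 on the log2 scale, PECAM1 by 0.63 and NOS3 by -0.28. Against control they stood in recovery at -0.99, -1.90 and -2.75 in the same order. Of 12 markers of neurons and Schwann cells 4 were measured, and 3 of them, NPY, TH and GAP43, were at least 2-fold higher in model than in control and at least 2-fold lower in recovery than in model. Against control, 1 of the 4 was lower and 1 higher in recovery, with a median of 0. The lower marker, S100B, was already low in model, with 13.34 in control, 9.74 in model and 9.02 in recovery. The summed signal of the 4 was 10416 in control, 5349 in model and 593 in recovery. The part of these cell types in the low signals of the 82 probes was not tested.

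Of 12 smooth muscle markers of the labelled tissue 7 were measured, all higher in recovery and in model than in control. ACTA2 had 12.45 in control, 16.02 in model and 16.45 in recovery. Control signals were uneven. LMOD1 lay below the floor there at 3.88, and SYNPO2 and TPM2 had 5.47 and 6.50. ACTA2, MYH11, ACTG2 and CALD1 had 10.71 to 13.45. Of 10 adipocyte markers 4 were measured, all lower in both arrays than in control, with FABP4 at 16.93 in control, 12.00 in model and 11.62 in recovery. The 3 value columns had equal medians of 5.48, and 60.0% of probes exceeded the floor in each. For the 8 spike-in control rows that exceeded the floor, the median of model minus control was -0.46 and that of recovery minus control 0.07. With the arrays shifted to equal medians of these controls, 196 probes were lower only in recovery, of which 66 were among the 82, and 91 were higher only in recovery, so the balance between the directions turned. That shift raised the model array by 0.42 and changed the recovery array by -0.14 on the log2 scale. BCS1L, GTPBP10, TLR3, PCGF1 and ALG8 all met the rule by their set medians after it, PCGF1 at -2.13 and ALG8 at -2.04 in recovery, against -1.99 and -1.90 without the shift.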

How the data were processed

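Total RNA from 1 abdominal aorta per group was labelled with Cy3 and hybridized to Agilent rabbit arrays. Scans were read by the authors in Agilent Feature Extraction, given as 10.7 by the submitters' processing notes, and quantile-normalized in GeneSpring. The deposited values are log2 signals that the authors had already normalized. How background and repeated spots were treated was not given in the sources used here. Detection calls were not used here. The number of arrays, 1 per group, limits the precision, so no p-value or SD over rabbits is given.

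Python 3.11.15 was used with numpy 2.4.6 and pandas 2.3.3. The floor is the 40th percentile of the 43603 gene probes (58 control rows left out). The members, gene lists and cutoffs were chosen with earlier results of these data known, and the probe sets and the match to set medians were added after the values had been seen. Sets end where adjacent probes' model ratios diverge, with the frame moving by 1 at number 29267. A gene was assigned to a set where exactly 1 set median had both ratios within 0.006, no other gene claimed it, and fewer than 0.1 chance matches were expected from the number of sets within 0.1 on both ratios. This assigned 1957 of 3715 listed genes, with 67.2 chance matches expected among them. Alternatives varied the floor, model window, recovery cutoff, scaling and match. Steps were tested on simulated data. The rule for naming took every assigned gene with a member probe or a set meeting the rule, 2 probe identifiers and members of the fixed lists.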

Additional observations from a re-analysis of the deposited data

How the results depend on the processing

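Counts depend strongly on the cutoffs. In the order probes lower only in recovery, those of them below the floor, probes higher only in recovery, and adjacent numbers also lower, the counts were 82, 16, 163 and 21. Set at the 20th percentile, the floor gave 183, 28, 211 and 69, set at the 60th it gave 42, 8, 141 and 12, and no floor gave 273, 207, 281 and 109. A model window of 0.25 gave 39, 8, 105 and 11, and one of 1 gave 210, 39, 360 and 40. A recovery cutoff of 1 gave 757, 93, 1065 and 75, and one of 3 gave 13, 4, 54 and 5. Asking the same fall against model gave 51, 10, 128 and 11. Centring on the median of probes above the floor left each count within 1.5 times, and 78 of its 83 lower-only probes were among the 82. The spiked-in shift gave 196, 35, 91 and 47. Counted as sets by their median, 33 were lower only and 77 higher only in recovery. Single probes named 2 genes, against which a tolerance of 0.004 named 0, a tolerance of 0.01 named 1, and asking for under 0.05 chance matches named 0, while set medians named 4 sets with a member. The 5 genes matched through sets kept a negative difference under every floor and scaling tried. The lowest was -2.43 and the highest -0.58, the highest being GTPBP10 with the 60th percentile as floor, against -2.29 with the floor used. No paired analysis was possible because each group has 1 array, and no replicate could be left out. A probe annotation table was not used here. Signals near the floor give bounds only, and spread between rabbits was not measured.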

Other observations

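Widening the model window to 1 on the log2 scale added genes that were lower mainly in recovery. By set medians, 92 of 14479 measured sets had a model difference under 1 and a recovery fall of at least 2. Of the 92, 34 were named, with 0.756 chance matches expected. Of the named sets, 31 lay outside the window of 0.5, and all 34 were below control in model and at least 2-fold lower in recovery than in model. The fall against model is fixed by the 2 cutoffs. The share of the 92 below control in model is not given here, and some unnamed sets were above it, such as those with model medians of 0.49 and 0.57. The sets were chosen on these values, and no test is given.

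HNMT, which inactivates histamine by methylation, had the deepest fall among them. Its 4 probes had 8.71 to 9.004 in control, 7.97 to 8.26 in model and 4.35 to 5.13 in recovery. The levels in recovery lay far below both other arrays at every probe. All of them were within 1 of the floor on the log2 scale, and the lowest lay below it, so its fall is a bound. RNF135, a ubiquitin ligase that activates the RNA sensor RIG-I, had 8.26 in control, 7.46 in model and 4.98 in recovery. That recovery signal was also within 1 of the floor on the log2 scale. RMND1, which acts in mitochondrial translation, had 8.78 as the median over 3 probes in control, 7.92 in model and 5.83 in recovery. TEFM, an elongation factor of mitochondrial transcription, had 9.22 in control, 8.57 in model and 7.10 in recovery. MMP9, a secreted gelatinase of macrophages and neutrophils, had 6.95 in control, 6.41 in model and 4.63 in recovery, the last within 1 of the floor on the log2 scale. FCGRT, the neonatal Fc receptor that recycles immunoglobulin G, was the brightest. Its 5 probes had 15.63 to 15.80 in control, 14.23 to 14.99 in model and 13.54 to 13.70 in recovery. At 1 of these probes model minus control was -1.47 and recovery minus model -0.64, so most of its fall was already present in model. At the others model minus control was -0.81 to -0.65. APTX, an enzyme that trims damaged DNA ends, had 9.07 and 9.09 in control, 8.48 and 8.43 in model, and 6.75 and 6.23 in recovery. After the shift to equal spiked-in controls 36 named sets met the rule, and HNMT, RNF135, RMND1, TEFM, MMP9, FCGRT, APTX, COL1A1 and CDK1 were among them.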
